A study of Sus scrofa with 8 samples.

Results

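The HOXC cluster is a run of homeobox genes on pig chromosome 5, and 8 of its genes, HOXC4, HOXC5, HOXC6, HOXC8, HOXC9, HOXC10, HOXC11 and HOXC12, were followed here by name through 8 skin biopsies. They are 8 of 31907 genes in the deposited count table. The symbol in that table identified 7 of them, and HOXC8, whose symbol cell was blank, was matched by its Ensembl identifier in a table of gene names. The members were selected on their CPM in injected and control biopsies, with the difference in HOXC10 already known, so those values are given as a description and without a test.

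HOX genes encode transcription factors that bind DNA through a homeodomain and mark position along the body axis. Within a cluster they lie in the order in which they are used along that axis, with low paralog numbers toward the head and high ones toward the tail and limb ends. Adult skin keeps part of this code, and in human skin the set of HOX genes expressed by dermal fibroblasts depends on the anatomical site.

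The injected group held 4 biopsies of wild-type Yorkshire swine skin taken 3 h after intradermal IL-15 (200 ng in 100 µl saline), from sites 12d and 12c of pig 14 and sites 12e and 12c of pig 13. The control group held 4 biopsies of uninjected skin, pig 14 at 7e and 6b and pig 13 at 7b and 6b. Whole biopsies gave total RNA, from which ribosomal RNA was removed before sequencing. IL-15, a cytokine acting through JAK1 and JAK3, was used to find strongly induced genes that could serve to read out a topical JAK inhibitor. The labels give no ages, saline alone was given at no site, and p-values here measure the spread between sites of these 2 animals only. Injected sites were numbered 12 and control sites 6 or 7, so site and treatment cannot be told apart.

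Total counts ran from 28471089 to 36070107 in injected and from 28730579 to 33567610 in control biopsies. No marker of fibroblasts, keratinocytes, hair follicle, endothelium or muscle held in the table was at 0 in all biopsies. The pig 13 control biopsy from site 7b stood apart. Its summed level of 8 fibroblast markers came to 19290 CPM, against 77060 to 192700 among the remaining controls, and its summed level of 8 hair follicle markers was 1328 CPM, against 3199 to 4762. Its sum of 6 basal keratinocyte markers was 21320 CPM, against 6800 to 12830. Values without this biopsy are given where they bear on a result. In whole biopsies a lower level cannot be assigned to fewer cells of a type or to less RNA per cell.

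The members spanned 101084 bases, all on the plus strand, in the order HOXC12, HOXC11, HOXC10, HOXC9, HOXC8, HOXC6, HOXC5 and HOXC4 by rising coordinate in Sscrofa11.1. HOXC12 (ENSSSCG00000000281) lay at 19167174 to 19168794, HOXC11 (ENSSSCG00000028104) at 19185746 to 19189023 and HOXC10 (ENSSSCG00000022728) at 19197807 to 19202970. HOXC9 (ENSSSCG00000034474) followed 9934 bases later, at 19212905 to 19215984, and HOXC8 (ENSSSCG00000038644) at 19221760 to 19225846. HOXC6 (ENSSSCG00000030585) lay at 19229871 to 19243512, HOXC5 (ENSSSCG00000040798) at 19245851 to 19248172 and HOXC4 (ENSSSCG00000038993) at 19265081 to 19268257. All were annotated as protein-coding, with 3 exons in HOXC6 and 2 in each of the others, and counts are of reads over these exons.

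HOXC10 belongs to the group of HOX genes that pattern the lumbar region and hindlimb in mice. Levels are CPM, read counts scaled by library size, here after TMM scaling. HOXC10 had 4.26 and 4.82 CPM in the injected biopsies from sites 12d and 12c of pig 14, and 2.46 and 3.24 CPM in those from sites 12e and 12c of pig 13. In the controls it had 0.494 and 0.191 CPM at sites 7e and 6b of pig 14, and 0.191 and 0.302 CPM at sites 7b and 6b of pig 13. Every injected biopsy was thus above every control biopsy. The lowest injected biopsy had 75 reads and the highest control 14. The means were 3.69 ± 1.05 CPM in injected biopsies and 0.295 ± 0.143 CPM in controls (SD, n = 4 each). The log2 fold change, from an edgeR fit with the pig as a block, was 3.61 ± 0.30 (SE), a 12.2-fold higher level, with a 95% confidence interval of 2.94 to 4.28. Without the biopsy from site 7b it was 3.52 ± 0.33.

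**Figure D1:**
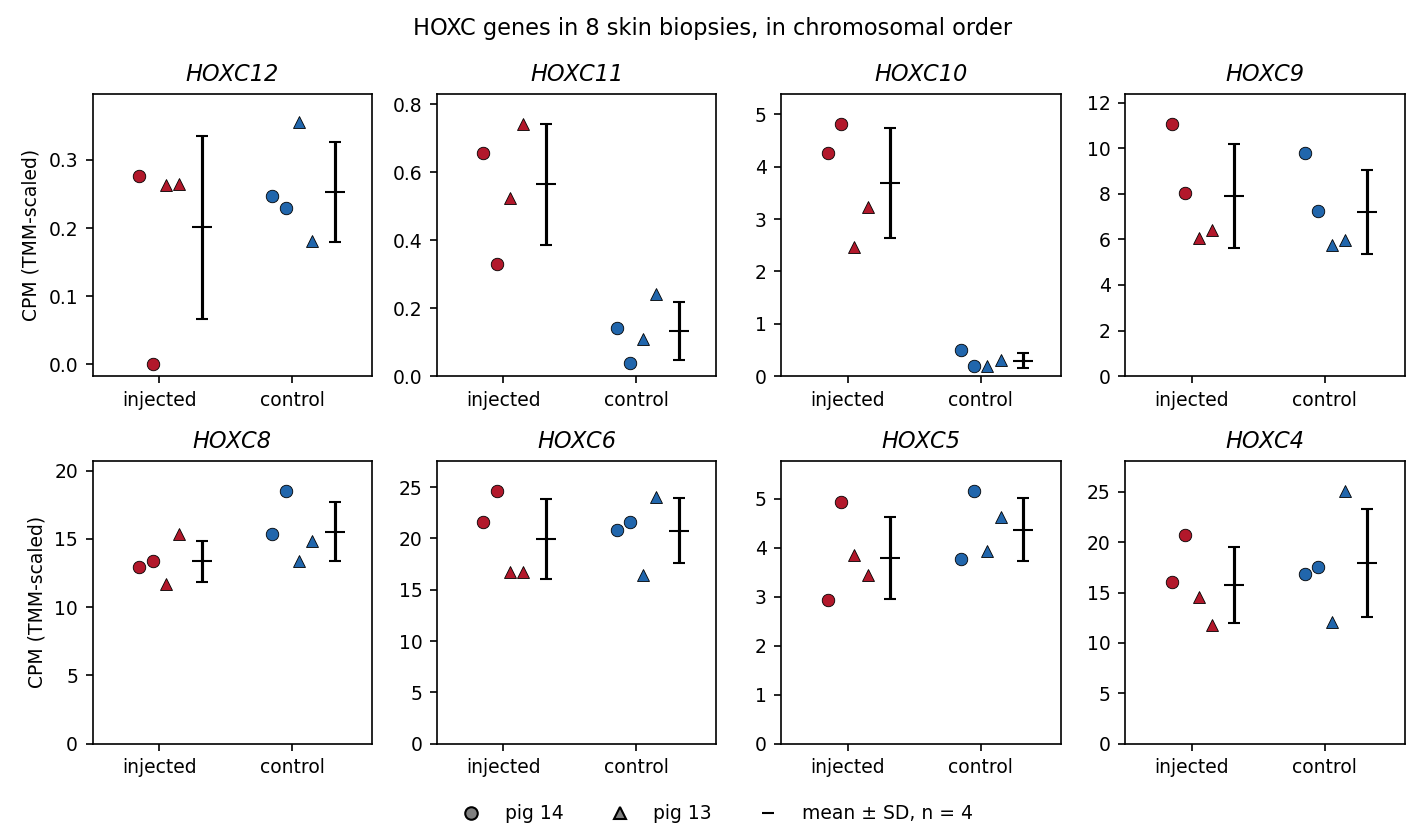
Level of each HOXC gene (TMM-scaled CPM, linear axes that differ between panels) in 4 injected and 4 control biopsies, with circles for pig 14, triangles for pig 13 and bars for mean ± SD. HOXC10 and HOXC11 are the panels in which the injected and control points do not overlap; HOXC10 lies at 2.46 to 4.82 CPM in injected biopsies and 0.191 to 0.494 CPM in controls.

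HOXC11, the next gene toward the HOXC12 end and also a gene of the lumbar and sacral region in mice, was expressed near the limit of counting. It had 19, 9, 16 and 28 reads in the injected biopsies from pig 14 sites 12d and 12c and pig 13 sites 12e and 12c. In the controls from pig 14 sites 7e and 6b and pig 13 sites 7b and 6b it had 4, 1, 4 and 8 reads. The injected biopsies, at 0.331 to 0.743 CPM, all lay above the controls, at 0.0382 to 0.242 CPM. HOXC11 averaged 0.564 ± 0.179 CPM in injected biopsies and 0.133 ± 0.085 CPM in controls (SD, n = 4 each), a ratio of 4.25. It had too few reads for the low-count filter (edgeR's filterByExpr with a minimum count of 10), and a fit without that filter gave a log2 fold change of 2.08 ± 0.56 (SE).

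HOXC12, a gene of the tail end of the axis, had 0 to 10 reads in injected and 6 to 13 in control biopsies. It averaged 0.201 ± 0.134 CPM in injected biopsies and 0.253 ± 0.073 CPM in controls (SD, n = 4 each), and the groups overlapped. The pig 14 injected biopsy from site 12c had none, which allows a level of up to 0.103 CPM (scaled to total counts without TMM), counting error only. The fit without the low-count filter gave a log2 fold change of -0.35 ± 0.72 (SE, 95% confidence interval -1.87 to 1.18), and without the biopsy from site 12c the log2 ratio of the means was 0.08.

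HOXC9, the neighbour of HOXC10 on the other side, was not separated by treatment. This gene, which marks the thoracic region in mice, had 11.07 and 8.02 CPM in the injected biopsies of pig 14 and 6.05 and 6.42 CPM in those of pig 13, against 9.78 and 7.25 CPM in the controls of pig 14 and 5.74 and 5.98 CPM in those of pig 13. The injected and control values overlapped, and the order of the biopsies followed the animal. The log2 fold change of injected over control biopsies was 0.13 ± 0.16 (SE, 95% confidence interval -0.22 to 0.47).

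HOXC8 and HOXC6, which in mice pattern the thoracic and brachial regions, were among the better covered members, with at least 355 and 509 reads in every biopsy. HOXC8 ran from 11.7 to 15.4 CPM in injected biopsies and from 13.4 to 18.5 CPM in controls, with a log2 fold change of -0.21 ± 0.13 (SE). HOXC6 ran from 16.7 to 24.6 CPM in injected biopsies and from 16.5 to 24.1 CPM in controls, with -0.08 ± 0.14 (SE). HOXC5 and HOXC4 pattern the neck in mice. HOXC5 ran from 2.94 to 4.93 CPM in injected biopsies and from 3.78 to 5.15 CPM in controls, with -0.21 ± 0.20 (SE), and HOXC4 from 11.8 to 20.7 CPM in injected biopsies and from 12.1 to 25.1 CPM in controls, with -0.20 ± 0.23 (SE). The groups overlapped in all 4 genes, and the 95% confidence intervals bounded any difference between -0.73, the lower bound of HOXC4, and 0.32, its upper bound. For HOXC4 and HOXC6 the sign depended on the pig 13 control biopsy from site 6b, which held their highest control values. Without it HOXC4 had 0.10 and HOXC6 0.08.

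Over the cluster, 2 of 8 members had every injected biopsy above every control biopsy, as had 1.15% of the 19862 genes past the low-count filter, among which HOXC11 was not. This count describes the contrast that the members were selected on. In that contrast edgeR's test, at an adjusted p under 0.05 over all genes, called 0.0352% of the genes, each of them higher, and no call is given for the members. The median log2 fold change of the 6 members past the filter was -0.14, against -0.01 over all genes tested.

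**Figure D2:**
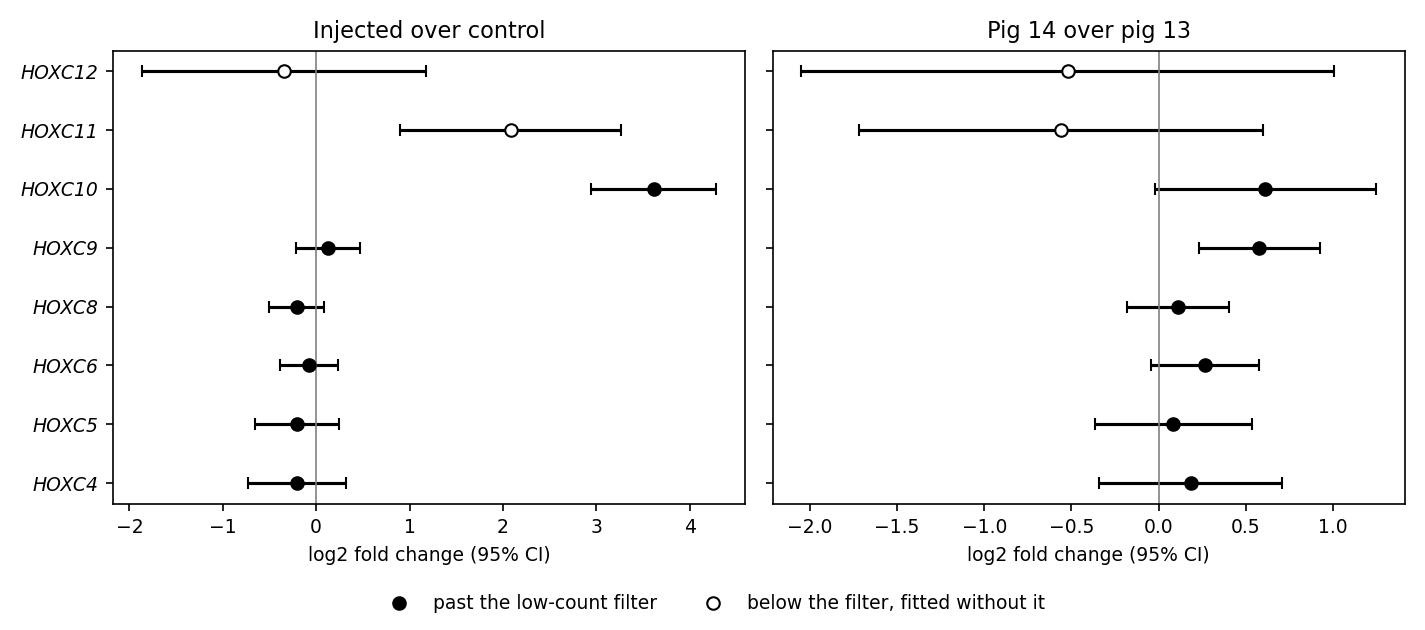
Log2 fold changes with 95% confidence intervals of injected over control biopsies (left) and of pig 14 over pig 13 (right) for each HOXC gene in chromosomal order, with open points for genes below the low-count filter. On the left HOXC10 lies at 3.61 and HOXC11 at 2.08 while the 5 genes from HOXC9 to HOXC4 lie between -0.21 and 0.13; on the right HOXC9 lies at 0.58.

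The reads of the whole cluster did not differ in the same way. The summed level of the 8 members was 65.2 ± 9.9 CPM in injected biopsies and 66.4 ± 9.9 CPM in controls (SD, n = 4 each). HOXC10 made up 6.10% and 6.27% of the cluster reads in the injected biopsies from sites 12d and 12c of pig 14, and 4.40% and 5.58% in those from sites 12e and 12c of pig 13. In the controls it made up 0.732% and 0.271% at sites 7e and 6b of pig 14, and 0.365% and 0.401% at sites 7b and 6b of pig 13. The lowest injected share had a 95% Wilson interval of 3.52% to 5.48% (75 of 1706 reads), and the highest control share one of 0.437% to 1.22% (14 of 1912 reads). These intervals cover counting error only.

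**Figure D3:**
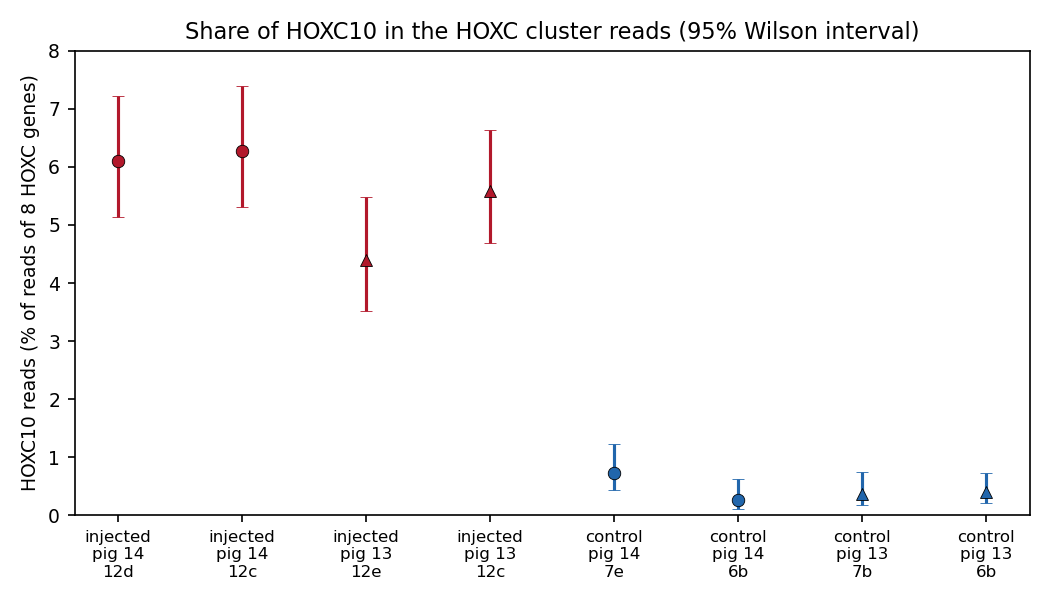
Reads of HOXC10 as a percentage of the reads of all 8 HOXC genes in each biopsy, with 95% Wilson intervals, circles for pig 14 and triangles for pig 13. The 4 injected biopsies lie between 4.40% and 6.27% and the 4 controls between 0.271% and 0.732%.

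Levels of different genes were compared per length, as RPKM. The order depends on the annotated exonic lengths, which ran from 849 bases in HOXC12 to 6609 in HOXC6. Before division by length, HOXC6 had the highest mean CPM of the members in both groups (19.9 injected, 20.8 control). In injected biopsies the order was HOXC9 (5.94 ± 1.46 RPKM), HOXC4 (5.82 ± 1.06), HOXC8 (4.995 ± 0.671), HOXC6 (2.99 ± 0.39), HOXC5 (2.33 ± 0.47), HOXC10 (1.81 ± 0.41), HOXC11 (0.278 ± 0.095) and HOXC12 (0.243 ± 0.162 RPKM, SD, n = 4). In control biopsies it was HOXC4 (6.71 ± 2.37 RPKM), HOXC8 (5.77 ± 0.49), HOXC9 (5.39 ± 0.96), HOXC6 (3.14 ± 0.57), HOXC5 (2.70 ± 0.42), HOXC12 (0.300 ± 0.105), HOXC10 (0.145 ± 0.063) and HOXC11 (0.0667 ± 0.0462 RPKM, SD, n = 4). In both groups the ranges of HOXC4, HOXC8 and HOXC9 overlapped between neighbours in the order, as did those of HOXC6 and HOXC5. In injected biopsies HOXC10 overlapped HOXC5, ranging from 1.31 to 2.23 RPKM against 1.74 to 2.83 RPKM, and was above HOXC11 throughout. In control biopsies HOXC10 lay at 0.0864 to 0.225 RPKM, below the range of HOXC5 at 2.13 to 3.11 RPKM, and overlapped HOXC11. Along the chromosome, the members above 1 RPKM in every biopsy ran from HOXC10 to HOXC4 in injected and from HOXC9 to HOXC4 in control biopsies.

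**Figure D4:**
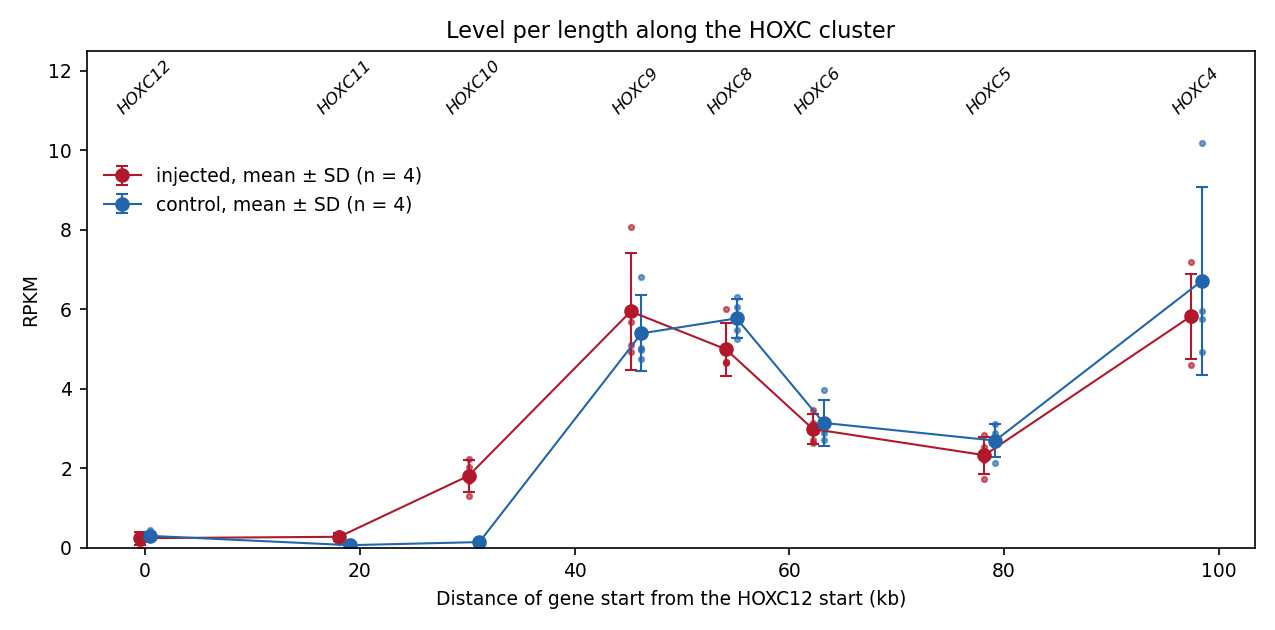
Level per length (RPKM, linear axis) of the 8 HOXC genes against the distance of their start from that of HOXC12 (kb), for injected and control biopsies (small points, single biopsies; large points and bars, mean ± SD, n = 4 each). The groups do not overlap at HOXC10, with means of 1.81 RPKM in injected and 0.145 RPKM in control biopsies. Nor do they at HOXC11, near the foot of the axis (0.1504 to 0.3785 RPKM injected, 0.01697 to 0.1287 RPKM control). They overlap from HOXC9 to HOXC4.

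The separation of HOXC10 and HOXC11 within each animal follows from that over all 8 biopsies, and the ratios by animal are a description. The ratio of mean HOXC10 levels in injected over control biopsies was 13.2 in pig 14 and 11.6 in pig 13, and that of HOXC11 was 5.51 in pig 14 and 3.61 in pig 13. In edgeR's quasi-likelihood test of an interaction of pig and treatment, which did not choose the members, 0 of the 6 tested members were called, and 0% of all genes. At an unadjusted p under 0.05 there were 0 of 6 members and 1633 of 19862 genes. DESeq2 gave HOXC10 no adjusted p, so HOXC10 could not be called there, and it called none of the other tested members. Over the whole table DESeq2 called 28 genes higher and 61 lower. The interaction of HOXC10 was 0.17 ± 0.68 (SE, log2 scale, 95% confidence interval -1.34 to 1.68, adjusted p = 0.963), and the interval is wide in both directions.

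The animals themselves could be compared over 4 biopsies each, with 1 animal on each side. HOXC9 averaged 9.03 ± 1.72 CPM in pig 14 and 6.05 ± 0.28 CPM in pig 13 (SD, n = 4 biopsies each), and its log2 fold change of 0.58 ± 0.16 (SE) passed edgeR's quasi-likelihood test over all genes (adjusted p = 0.0411). It was the only one of 6 tested members that passed, where 10.7% of all genes did and 6.39% were called higher in pig 14. Every pig 14 biopsy was above every pig 13 biopsy for HOXC9, as for 9.87% of all genes, and no member was below throughout, as 8.73% of all genes were. At matched site labels HOXC9 had 8.02 CPM in pig 14 and 6.42 CPM in pig 13 at injected site 12c, and 7.25 CPM in pig 14 and 5.98 CPM in pig 13 at control site 6b. HOXC10 had 0.61 ± 0.29 (SE, adjusted p = 0.202) and HOXC6 0.27 ± 0.14 (SE, adjusted p = 0.259) in the same edgeR test, and the other 3 tested members had values between 0.08 and 0.19. The call of HOXC9 ended when single biopsies from pig 14 sites 12d or 7e (adjusted p = 0.144 and 0.145) or from any of the 4 pig 13 sites were left out (adjusted p from 0.061 to 0.122 in edgeR's test, 0.0643 without site 7b). Over these 6 the log2 fold change was 0.46 to 0.59, and the call remained without the pig 14 biopsies from sites 12c or 6b. DESeq2 called HOXC9 as well (adjusted p = 0.0107). It also ended with library totals in place of TMM scaling (0.37, adjusted p = 0.115 in edgeR's test), which moved the median of all genes by -0.21. When the pig 13 control from site 6b was left out, HOXC6 and HOXC4 passed instead (adjusted p = 0.0325 and 0.0492 in edgeR's test).

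The animals also differed in markers of skin cell types. The summed level of fibroblast markers was 136700 to 192700 CPM in pig 14 and 19290 to 109300 CPM in pig 13 (77060 to 109300 CPM without site 7b). The animals did not overlap in this sum, in which the collagen genes COL1A1, COL1A2 and COL3A1 had the highest levels. PDGFRA (0.16 ± 0.17) and DCN (0.27 ± 0.28, SE) had the smallest log2 fold changes of the list. The median log2 fold change of the 8 fibroblast markers was 0.86, and LUM, a collagen-binding proteoglycan, passed edgeR's test (1.36 ± 0.32, SE, adjusted p = 0.0353), where DESeq2 called 6 of the 8. Basal keratinocyte markers had a median of -0.72 and sums of 6800 to 13360 CPM in pig 14. In pig 13 the sums were 12830 to 21320 CPM (12830 to 15720 CPM without site 7b). KRT5 passed edgeR's test (-0.89 ± 0.25, SE, adjusted p = 0.0484), where DESeq2 called 5 of the 6. Of 4 leukocyte markers 2 passed edgeR's test, the T cell receptor subunit CD3E (1.88 ± 0.28, SE, adjusted p = 0.0029) and PTPRC (1.15 ± 0.22, SE, adjusted p = 0.0132). CD14 (-0.02 ± 0.22) and CD68 (-0.11 ± 0.16, SE) did not pass. The sums of the 4 were 95.3 to 149 CPM in pig 14 and 60.0 to 108 CPM in pig 13 (60.0 to 95.7 CPM without site 7b). ACKR1, a marker of venules, was the only one of 5 endothelial markers that passed edgeR's test (0.33 ± 0.09, SE, adjusted p = 0.0442). CLDN5 (-0.25 ± 0.15) and CDH5 (-0.09 ± 0.17) lay below 0, and VWF (0.25 ± 0.16) and PECAM1 (0.05 ± 0.15, SE) above. The median of the 5 was 0.05. Their sums overlapped, at 568.9 to 923.9 CPM in pig 14 and 618.5 to 766.3 CPM in pig 13. No marker of the other 6 cell types passed between the animals in edgeR's test, and DESeq2 called KRT27 of the hair follicle list. The part of these cell types in the HOXC9 value was not tested.

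Members were compared with each other over the 8 biopsies, which come from 2 animals. HOXC6 and HOXC4 had the most similar log2 levels (Pearson r = 0.92, n = 8), and the pig 14 injected biopsy from site 12c and the pig 13 control from site 6b held the highest levels of both. The other pairs had r between -0.54, for HOXC10 with HOXC8, and 0.57, for HOXC5 with HOXC4. HOXC10 with its neighbour HOXC9 had r = 0.36.

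Among genes with a mean of at least 1 CPM, those whose log2 level over the 8 biopsies was most like HOXC10 were HOXA9 (r = 0.99), HOXA10 (r = 0.95), MCAT (r = 0.94), KRT3 (r = 0.94) and PTX3 (r = 0.94). HOXA9 and HOXA10 lie on chromosome 18. HOXA10 had 2.83 to 7.44 CPM in injected biopsies and 0.0273 to 0.153 CPM in controls, and HOXA9 had 15.5 to 27.7 CPM in injected biopsies and 1.95 to 3.60 CPM in controls. PTX3, a secreted pentraxin, had 34.3 to 50.6 CPM in injected biopsies and 2.99 to 9.08 CPM in controls, and KRT3, a keratin, 23.6 to 42.3 CPM in injected biopsies and 11.6 to 15.9 CPM in controls. MCAT, an enzyme of mitochondrial fatty acid synthesis, differed little in size, with 7.78 to 8.53 CPM in injected biopsies and 6.15 to 7.10 CPM in controls. In all 5 the injected and control biopsies did not overlap, which choosing genes by their likeness to HOXC10 favours. For the other 5 members past the low-count filter no named HOX gene was among the 3 most alike. The closest were GNLY for HOXC9 (r = 0.98), KLHL28 for HOXC8 (r = 0.98), KANSL3 for HOXC6 (r = 0.99), the unnamed gene ENSSSCG00000042694 for HOXC5 (r = 0.98) and NPHP4 for HOXC4 (r = 0.97). The other named ones were FTO and ARL6IP4 for HOXC9, HCFC2 and ZNF24 for HOXC8 and PDLIM2 for HOXC5, with r between 0.94 and 0.97. Picking the highest r of all genes compared over only 8 biopsies favours values this high, and shared regulation was not tested.

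HOXC13, a regulator of hair keratins at the outer end of the cluster and not counted among the members, had 14.0 to 17.2 CPM in injected biopsies and 7.10 to 16.7 CPM in controls. At 15.1 ± 0.9 RPKM in injected and 12.3 ± 4.3 RPKM in control biopsies (SD, n = 4 each) its level per length was above that of every member, although HOXC12, beside it, was nearly silent. Its lowest value, 7.10 CPM, was in the pig 13 control from site 7b, where hair follicle markers were also lowest, and the part of that tissue in the value was not tested. Its log2 fold change of 0.29 ± 0.22 (SE) did not pass edgeR's test (adjusted p = 0.964).

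Between the first and last member the table held 4 other annotated genes. The precursor gene of miR-196a-2, between HOXC10 and HOXC9, had 0 to 4 reads in injected and 0 or 1 in control biopsies, and that of miR-615, inside the span of HOXC5, had 3 to 10 in injected and 1 to 9 in control biopsies. A noncoding gene without a symbol on the minus strand between HOXC12 and HOXC11 (ENSSSCG00000046457) had 2 to 12 reads in injected and 0 to 6 in control biopsies. Another on the minus strand, ENSSSCG00000044335 at 19206548 to 19209212 between HOXC10 and HOXC9, had 2.31 to 5.47 CPM in injected biopsies and 1.75 to 3.40 CPM in controls. Its log2 fold change of injected over control biopsies was 0.51 ± 0.21 (SE, adjusted p = 0.964 in edgeR's test), and that of pig 14 over pig 13 was 0.81 ± 0.21 (SE, adjusted p = 0.0337), the same direction as for HOXC9. The sources used here do not state whether strand was used in counting. Within 250 kb on either side 8 further genes were tested, HOXC13 among them. Of the 4 genes inside the cluster other than members, only ENSSSCG00000044335 was tested. Neither it nor any of the 8 was called between injected and control biopsies, where 0.0352% of all genes were. The log2 fold changes of the 8 lay between -0.28 and 0.38. The nearest protein-coding ones were HOXC13, SMUG1, CBX5, HNRNPA1 and NFE2. SMUG1 had 0.14 ± 0.13, CBX5 -0.04 ± 0.08, HNRNPA1 0.07 ± 0.10 and NFE2 0.38 ± 0.36 (SE).

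HOX genes of the same paralog numbers in the other clusters were not alike. HOXA9 had a log2 fold change of 2.85 ± 0.22, HOXA10 of 6.28 ± 0.39 and HOXA11 of 2.55 ± 0.54 (SE) for injected over control biopsies. HOXA11, with 1.51 to 2.28 CPM in injected biopsies and 0 to 0.494 CPM in controls, did not pass (adjusted p = 0.559 in edgeR's test). HOXB9 had 0.05 ± 0.20, HOXD9 0.17 ± 0.16, HOXD10 -0.05 ± 0.28 and HOXD11 -0.39 ± 0.28 (SE). Over all genes tested, edgeR called 2 of 10 tested HOXA genes higher, HOXA9 and HOXA10, and none of 8 HOXB and 6 HOXD genes. It called 0.0352% of all genes, and the gene lists were chosen with earlier results of these data known. At an unadjusted p under 0.05 there were 6 HOXA genes, 1 HOXB gene, HOXB7 (0.48 ± 0.16, SE), and 0 HOXD genes, against 902 of all 19862 genes. DESeq2 called 5 HOXA genes, HOXA5, HOXA9, HOXA10, HOXA11 and HOXA13, and 0 of the B and D clusters. Over the whole table DESeq2 called 48 genes higher and 10 lower. The median log2 fold changes were 0.68, 0.21 and -0.07 for the A, B and D clusters.

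Genes that act with or on HOX clusters were not called between injected and control biopsies, where edgeR called 0.0352% of all genes. None of 9 tested DNA-binding cofactors of HOX proteins (the PBX, MEIS and PKNOX families), 18 Polycomb genes, which keep HOX genes silent, 9 Trithorax and H3K27 demethylase genes, which oppose them, and 10 genes of retinoic acid, CDX and CTCF regulation passed over all genes in edgeR's test. DESeq2 called 0 as well, with 48 genes higher and 10 lower over the whole table. Only the cofactor PKNOX2 had an unadjusted p under 0.05 in edgeR's test, as had 902 of all 19862 genes. Their medians lay between -0.03 and 0.10. The smallest p in each list were those of PKNOX2 (0.30 ± 0.13), CBX2 (0.32 ± 0.15), WDR5 (0.14 ± 0.11) and the retinoic acid hydroxylase CYP26B1 (-0.38 ± 0.18, SE, adjusted p = 0.964 for all 4). Between the animals 2 of these genes passed in edgeR's test, where 10.7% of all genes did. The H3K27 demethylase KDM6A was higher in pig 14 (0.48 ± 0.08, SE, adjusted p = 0.0041) and the retinoic acid receptor RARG lower (-0.53 ± 0.10, SE, adjusted p = 0.0099). Among cofactors and Polycomb genes the smallest p between the animals were those of PKNOX2 (-0.39 ± 0.13, SE, adjusted p = 0.0896) and PHC1 (0.37 ± 0.11, SE, adjusted p = 0.0529), which did not pass, though DESeq2 called PHC1. HOXB2 was the only gene of the A, B and D clusters that passed between the animals in edgeR's test, higher in pig 14 (0.81 ± 0.14, SE, adjusted p = 0.006). DESeq2 called HOXB2 and also HOXA5, which had 0.71 ± 0.20 (SE, adjusted p = 0.0506) in edgeR's test.

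Marker lists of 10 skin cell types were set beside these values. No marker was called between injected and control biopsies in edgeR's test, where 0.0352% of all genes were. The smallest adjusted p in edgeR's test was that of ACKR1 (0.56 ± 0.09, SE, adjusted p = 0.173), the only marker that DESeq2 called. At an unadjusted p under 0.05 there were 3 differentiated keratinocyte markers, 2 endothelial markers, 1 skeletal muscle marker and none of the other lists, against 902 of all 19862 genes. The summed level of fibroblast markers ran from 77570 to 190600 CPM in injected biopsies. In controls it ran from 19290 to 192700 CPM, or 77060 to 192700 CPM without site 7b, so the groups overlapped. The sums of basal and differentiated keratinocyte, hair follicle, adipocyte, endothelial, smooth muscle, skeletal muscle, melanocyte and leukocyte markers also overlapped between the groups. The part of any cell type in the HOXC10 value was not tested. The largest medians were 0.83 for adipocyte markers, whose sums ran from 545.6 to 2438 CPM in injected biopsies and from 485.6 to 2635 CPM in controls, and -0.48 for differentiated keratinocyte markers, at 2850 to 5326 CPM in injected biopsies and 4655 to 10170 CPM in controls, or 4655 to 6097 CPM in controls without site 7b. The single markers with the smallest p in the other lists were THY1 (0.39), KRT5 (0.38), KLK5 (-0.42), KRT27 (0.54), PPARG (0.90), DES (0.57), TNNI2 (0.53), DCT (-0.21) and PTPRC (-0.15, all log2 fold changes of injected over control biopsies).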

How the data were processed

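Tools named in the submitters' processing notes are STAR 2.5.1a, bcl2fastq and, from Subread, featureCounts 1.4.6-p5, with the build Sscrofa11.1. Each Ensembl gene has a deposited read count, a whole number, and 425 genes stood on several rows with identical counts and were used once. Per the file headers, the deposited single files also hold CPM and RPKM, which are scaled to the total of assigned reads and, for RPKM, to the exonic length. The single file of the pig 13 control from site 7b ended after 607 genes, so its counts came from the series table and its RPKM were computed.

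The members and gene lists were chosen with earlier results of these data known. Genes past filterByExpr (minimum count 10) of edgeR 4.0.16 in R 4.3.3, 19862 in all, were scaled by TMM and fitted with a robust quasi-likelihood model of pig and treatment, and of their interaction. Calls are at a Benjamini-Hochberg adjusted p under 0.05 over all genes. CPM are TMM-scaled, and RPKM and the limit for a count of 0 are on the deposited scale. Pig is a block because the labels name the animal. Deviations from group means correlated at 0.28 to 0.53 within a pig and -0.48 to -0.30 across pigs. Such deviations cancel within a group, so the negative values follow from the positive ones and add no separate evidence. No 2 biopsies of a group agreed within sampling noise (12 pairs). DESeq2 1.42.0 was an alternative, and the procedure was tested on simulated data.

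The rule for named genes took all members, HOXC13, the genes most like each member by Pearson r of log2 CPM, paralogs and called genes of the other clusters, genes within 250 kb, and the smallest p of each list. Wilson intervals (95%) and the limit for a count of 0 (3 reads) cover counting error only. Sequences were not used here.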

Additional observations from a re-analysis of the deposited data

Results flagged for a closer look

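HOXC12 in the injected group had 1 biopsy far from the other 3. The pig 14 biopsy from site 12c had 0 CPM, from 0 reads, against 0.263 to 0.277 CPM in the other injected biopsies, and the gap was 0.95 of the range of the group. With 0 to 10 reads per injected biopsy this is a difference of a few reads. In 16 such groups of 4 checked over the members it was the only one, and chance marks about 1 group in 20.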

How the results depend on the processing

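The log2 fold change of HOXC10 was 3.38 to 3.86 when single biopsies were left out and 3.61 to 3.64 under the other settings, 3.64 of them with no replicate block (no pig term). Without the block 6 genes were called higher, in place of 7. DESeq2 called 48 higher and 10 lower, and leaving out single biopsies gave 3 to 19 higher (19 without the pig 13 control from site 7b) and 0 to 1 lower. Between the animals 1270 genes were higher and 863 lower in pig 14. DESeq2 gave 1333 lower, library totals without TMM 3936 lower, and leaving out single biopsies 723 to 1347 higher and 392 to 903 lower. Scaling by totals moved the median of all genes by -0.21. It ended the call of HOXC9 (0.37, adjusted p = 0.115 in edgeR, 0 members called) and turned HOXC8 to -0.10, HOXC5 to -0.13 and HOXC4 to -0.025, each moved by about that shift. Leaving out single biopsies gave 0 to 2 called members and -0.088 to 0.21 for HOXC5. For the interaction DESeq2 called 28 genes higher and 61 lower, the fit without a low-count filter 3 and 5, and leaving out single biopsies 0 to 143 and 0 to 170, the most without the pig 13 control from site 6b. No member was called in any of these, though DESeq2 gave HOXC10 no adjusted p. Signs turned when single biopsies were left out, with ranges of -0.32 to 1.05 for HOXC10, -0.16 to 0.34 for HOXC9, -0.35 to 0.40 for HOXC5 and -0.024 to 1.02 for HOXC4. HOXC10 kept its rank in the order of levels, 6 of 8 in injected and 7 of 8 in control biopsies, under TMM scaling and without single biopsies. Spearman's rho in place of Pearson's r kept 2 of the 5 genes most like HOXC10. The causes of these shifts were not tested. Depth limits HOXC11 and HOXC12, which had at most 28 and 13 reads.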
